A study of Mus musculus with 8 samples.

Results

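The mRNAs of 8 costimulatory receptors of T cells were followed in tumor-infiltrating immune cells: Tnfrsf4 (OX40), Tnfrsf9 (4-1BB), Tnfrsf18 (GITR), Tnfrsf1b (TNFR2), Cd27, Cd28, Icos and Cd226 (DNAM-1). They were chosen by symbol from the 27998 genes of the first single-cell RNA-seq experiment of the study, and all 8 were present. CD45+ cells were sorted from subcutaneous B16-OVA melanomas of female C57BL/6 mice, which were aged 7 weeks at tumor injection and received no lymphodepletion, and their mRNA was counted with the 5′ assay of 10x Genomics. The mice had adoptive cell transfer (ACT) of OT1 CD8+ T cells, which carry a T-cell receptor for an ovalbumin peptide. OT1 cells were either untransduced, or secreted PD1d (the PD-1 ectodomain fused to a human IgG4 Fc) with IL-2v (an IL-2 variant), PD1d with IL-33, or were a mixture of both engineered products (PD1d/IL-2v/IL-33), called combined ACT here. There was 1 library per condition and day, from pooled tumors of 5 mice at days 5 and 12 of ACT. The Methods used here do not describe the pools of the day 26 and the non-treated library. Untransduced ACT was sampled at days 5 and 12 after transfer and combined ACT at days 5, 12 and 26, while ACT with either engineered product alone was sampled only at day 12 and non-treated tumors only at day 5. Transferred and endogenous CD8+ T cells cannot be told apart in these counts.

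Costimulatory receptors pass on a second signal that decides, together with the T-cell receptor, how far a T cell divides, survives and secretes cytokines. OX40, 4-1BB, GITR, TNFR2 and CD27 belong to the tumor necrosis factor (TNF) receptor superfamily, bind trimeric ligands and recruit TRAF adaptors that activate NF-kB. CD28 and ICOS are related receptors that engage phosphoinositide 3-kinase. CD226 binds Nectin-2 and PVR, and it shares PVR as a ligand with the inhibitory receptors TIGIT and CD96. In mice CD28 and CD27 are already present on resting T cells, whereas OX40, 4-1BB and ICOS are largely acquired after activation, and regulatory T cells carry OX40 and GITR without further activation.

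The libraries held 1387032 to 24917112 unique molecular identifiers (UMIs), 12821 of 15700 barcodes passed the study's cell filter, and the median depth of passing cells was 4459 to 7299 UMIs per library. Cells were assigned to populations by raw UMIs of marker genes that are not among the 8 receptors. The gates held 5059 CD8+ T cells, 792 CD4+ T cells without and 404 with a Foxp3 UMI, 2540 natural killer (NK) cells, and 163 type 2 cells (Il1rl1 with Gata3, Il5 or Il13, without Foxp3, Cd4 or Cd8 UMIs), of which 73.6% had a Cd3 UMI. Only populations of at least 20 cells in a library were used. This left 8 libraries for CD8+ T and NK cells, 6 for Foxp3- CD4+ T cells, 5 for Foxp3+ CD4+ T cells and 3 for type 2 cells. Untransduced ACT at day 12 and non-treated tumors were the thinnest, with 42 and 76 CD8+ T cells. There were 143 barcode sequences present in 2 libraries, 95 of them among passing cells, and 2 cells fell in 2 gates. Macrophage, B-cell, dendritic-cell and melanoma markers stayed at or below 122 CPM (UMIs of a gene scaled to a total of 1000000 UMIs) when summed over each list in every gated T and NK population. The Foxp3- CD4+ gate was mixed. Its summed level of 3 regulatory T-cell markers (Il2ra, Ikzf2 and Ctla4) ranged from 336 CPM in combined ACT at day 26 to 1985 CPM in PD1d/IL-2v ACT, and that of 6 type 2 markers from 299 CPM in untransduced ACT at day 5 to 11576 CPM in combined ACT at day 5. The CD8+ gate did not ask for Foxp3 at 0, and 0.407% to 3.17% of its cells had a Foxp3 UMI.

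Of the receptors, 4 lie on mouse chromosome 4 (positions from RefSeq, GRCm38.p6). Tnfrsf4 (ENSMUSG00000029075) spans chr4:156013595-156016613 and Tnfrsf18 (ENSMUSG00000041954) spans chr4:156026322-156028894, 9.71 kb apart. Tnfrsf9 (ENSMUSG00000028965) lies at chr4:150920155-150946104 and Tnfrsf1b (ENSMUSG00000028599) at chr4:145212368-145246870. Cd28 (ENSMUSG00000026012, chr1:60746388-60773359) and Icos (ENSMUSG00000026009, chr1:60960773-61000322) are 187.4 kb apart, and Cd27 (ENSMUSG00000030336) lies at chr6:125232620-125237136. Cd226 carries the identifier ENSMUSG00000034028. The first 16 bases of Tnfrsf4 overlap the end of the annotated Sdf4 gene, so reads in that overlap cannot be assigned with certainty. In passing cells the receptors were counted with 4251 (Cd226) to 33048 (Tnfrsf9) UMIs.

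Tnfrsf9 and Tnfrsf18 are shown as examples. Their levels overlapped in CD8+ T and NK cells, but so did those of Tnfrsf1b and Cd27, whose windows are not printed. Tnfrsf9 also varied between treatments. The RefSeq promoter table (GRCm38.p6) held 6 windows of 5 receptors, with 2 starts for Tnfrsf9 that are 7.844 kb apart, the second inside the gene. Each line gives the 250 bases before a start, all on the plus strand. Capitals mark matches to an NF-kB motif and to the AP-1 motif TGANTCA, searched on both strands.
Tnfrsf9, first start, chr4:150919905-150920154: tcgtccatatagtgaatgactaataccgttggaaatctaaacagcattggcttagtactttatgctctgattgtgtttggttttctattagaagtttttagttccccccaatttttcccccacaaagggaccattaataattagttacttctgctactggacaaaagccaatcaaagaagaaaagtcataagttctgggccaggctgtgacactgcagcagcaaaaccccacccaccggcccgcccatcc
Tnfrsf9, second start, chr4:150927749-150927998: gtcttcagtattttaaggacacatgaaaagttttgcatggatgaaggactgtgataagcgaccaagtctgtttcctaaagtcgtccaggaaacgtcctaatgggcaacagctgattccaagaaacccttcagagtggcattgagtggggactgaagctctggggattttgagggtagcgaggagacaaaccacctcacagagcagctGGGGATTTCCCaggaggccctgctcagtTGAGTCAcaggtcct
Tnfrsf18, chr4:156026072-156026321: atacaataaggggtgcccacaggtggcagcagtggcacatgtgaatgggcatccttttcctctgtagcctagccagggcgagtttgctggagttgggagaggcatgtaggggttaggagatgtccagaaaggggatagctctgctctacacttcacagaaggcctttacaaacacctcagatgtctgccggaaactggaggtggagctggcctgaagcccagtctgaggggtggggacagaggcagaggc
The window before the second Tnfrsf9 start held 2 overlapping NF-kB matches, 43 to 34 and 42 to 33 bases before the start, and 1 AP-1 match, 15 to 9 bases before it. The other 5 windows, those of Tnfrsf4, Tnfrsf1b, Cd27 and Tnfrsf18 and the first of Tnfrsf9, held no match of either motif. Of all 32841 windows of this length in the table, 7.253% held an NF-kB match, 6.751% an AP-1 match and 0.3563% both. A match is a description of letters in a window and not a shown binding site, and the counts do not tell which start was used.

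**Figure D1:**
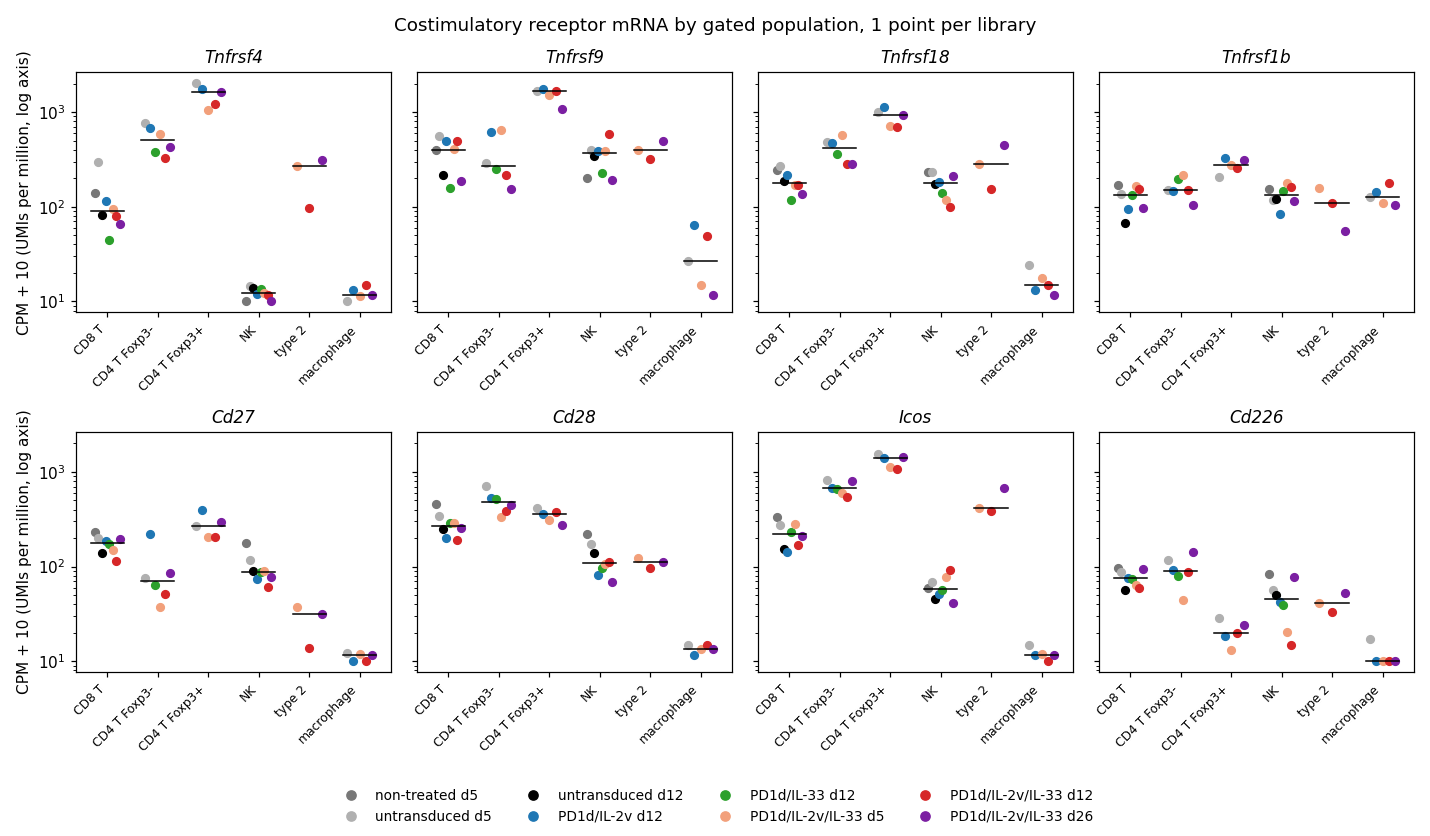
Level of each receptor mRNA in each gated population, as CPM plus 10 on a log axis, with 1 point per library of at least 20 cells and a line at the median over libraries. Tnfrsf4 and Icos are highest in Foxp3+ CD4+ T cells, Tnfrsf4 in NK cells is at the macrophage level, and Tnfrsf1b is also found in macrophages, at 94.5 to 169 CPM.

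Among the TNF receptor family, Tnfrsf4 separated the populations. In Foxp3+ CD4+ T cells it stood at 2029 CPM in untransduced ACT at day 5, 1745 in PD1d/IL-2v ACT, and 1037, 1212 and 1605 in combined ACT at days 5, 12 and 26. In Foxp3- CD4+ T cells the lowest, median and highest libraries were at 315, 496 and 751 CPM, and in CD8+ T cells at 34.1, 79.2 and 286 CPM. The ranges of these 3 populations did not overlap. In NK cells Tnfrsf4 was at 0 to 4.44 CPM, against 0 to 4.82 CPM in macrophages, a cell type gated here as a background for free RNA. Zero UMIs were counted in NK cells of non-treated tumors and of combined ACT at day 26, which allows up to 9.25 and 8.46 CPM. After each cell was thinned to 2000 UMIs, 81.6% to 91.0% of Foxp3+ CD4+ T cells and 2.72% to 21.0% of CD8+ T cells had a Tnfrsf4 UMI, compared with 0% to 1.72% of NK cells and 0% of macrophages. Without thinning these shares were 97.1% to 100%, 5.18% to 39.5%, 0% to 2.37% and 0% to 3.92%, at median depths of 5798, 6079, 5298 and 10680.5 UMIs per cell.

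Tnfrsf9 was also highest in Foxp3+ CD4+ T cells, at 1643 CPM in untransduced ACT at day 5, 1760 in PD1d/IL-2v ACT and 1521, 1672 and 1065 in combined ACT at days 5, 12 and 26. Unlike Tnfrsf4, it was found at overlapping levels in the other lymphocytes. CD8+ T cells ranged from 146 to 552 CPM (median 392) and NK cells from 180 to 576 CPM (median 357). Foxp3- CD4+ T cells ranged from 145 to 641 CPM (median 262), and the 3 type 2 sums were at 383, 312 and 485 CPM at days 5, 12 and 26. Macrophages held 1.78 to 54.2 CPM. Tnfrsf18 had the order of Tnfrsf4 in its medians, with type 2 cells between Foxp3- CD4+ and CD8+ T cells. It was at 983, 1123, 696, 689 and 925 CPM in the 5 libraries with Foxp3+ CD4+ T cells, in the order given for Tnfrsf9, and its medians were 406 CPM in Foxp3- CD4+ T cells, 170 CPM in CD8+ T cells and 168 CPM in NK cells. Tnfrsf1b, whose product is the TNF receptor with the narrower cell distribution, was not restricted to lymphocytes. It was at 94.5 to 169 CPM in macrophages, 58.1 to 161 CPM in CD8+ T cells and 74.3 to 168 CPM in NK cells, and at 196 to 319 CPM in Foxp3+ CD4+ T cells, the only population whose range lay above that of macrophages. Cd27, the receptor for CD70, was at 193 to 383 CPM in Foxp3+ CD4+ T cells, 103 to 223 CPM in CD8+ T cells and 50.3 to 167 CPM in NK cells. It was lower in Foxp3- CD4+ T cells, with a median of 59.9 CPM and a highest value of 209 CPM in PD1d/IL-2v ACT, the library whose gate held the most regulatory T-cell marker UMIs.

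In the CD28 family, Icos had the order of Tnfrsf4 and Cd28 did not. Cd28, the receptor for CD80 and CD86, was at 322 to 706 CPM in Foxp3- CD4+ T cells, 262 to 408 CPM in Foxp3+ CD4+ T cells and 180 to 443 CPM in CD8+ T cells, ranges that overlapped. Icos, the receptor for ICOS ligand, fell into separate ranges of 1068 to 1521 CPM in Foxp3+ CD4+ T cells, 539 to 815 CPM in Foxp3- CD4+ T cells and 132 to 321 CPM in CD8+ T cells. NK cells held 31.0 to 81.7 CPM of Icos, above the 0 to 4.75 CPM of macrophages and below every CD8+ T-cell library. Cd226 showed the opposite pattern among CD4+ T cells. It was at 34.3 to 133 CPM in Foxp3- CD4+ T cells and at 18.5, 8.42, 3.16, 9.98 and 14.2 CPM in the 5 libraries with Foxp3+ CD4+ T cells, near the 0 to 7.13 CPM of macrophages.

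Foxp3+ and Foxp3- CD4+ T cells were compared within the 5 libraries that held both, with edgeR's quasi-likelihood test on UMIs summed per population, the library as a block and Benjamini-Hochberg adjustment over all genes tested. Of 5682 genes, 17.7% differed between them, 8.83% higher and 8.85% lower in Foxp3+ cells. Of the 8 receptors, 6 were higher and 2 lower in Foxp3+ cells, and each had the same direction in 5 of 5 libraries. The largest increase was that of Tnfrsf9 (log2 fold change 2.15 ± 0.22, SE, adjusted p = 3.01e-06). Cd27 (1.81 ± 0.20, adjusted p = 8.57e-06), Tnfrsf4 (1.43 ± 0.14, adjusted p = 2.62e-06) and Tnfrsf18 (1.07 ± 0.16, adjusted p = 0.000182) came next. Icos (0.87 ± 0.10, adjusted p = 7.35e-06) and Tnfrsf1b (0.85 ± 0.18, adjusted p = 0.00264) rose by less, and Icos did so evenly, with log2 differences between 0.86 and 1.03 in the 5 libraries. Cd226 was lower in Foxp3+ cells (log2 fold change -3.07 ± 0.23, adjusted p = 1.63e-07). It was near the macrophage level in Foxp3+ cells. These held 10 UMIs in untransduced ACT at day 5, 8 in PD1d/IL-2v ACT and 1, 2 and 11 in combined ACT at days 5, 12 and 26. The size of the fold change is therefore uncertain, and the mean log2 difference of CPM plus 10 was -2.16. Cd28 was slightly lower (-0.54 ± 0.13, adjusted p = 0.0066), a call that was lost without the library block (adjusted p = 0.0973). The exact two-sided sign-flip test over 5 libraries cannot go below 0.0625, the value it gave for each of the 8 genes. Foxp3 is detected in only part of the cells that express it. Pooled over libraries, Foxp3- and Foxp3+ cells held 428 and 2404 CPM of Ctla4 and 168 and 508 CPM of Il2ra. For Ikzf2 the levels were 115 CPM (60.2 to 308 over libraries) and 1030 CPM, with 101 CPM in CD8+ T cells. Whether the Foxp3- gate held regulatory T cells without a Foxp3 UMI was not tested, nor was their part in these differences.

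**Figure D2:**
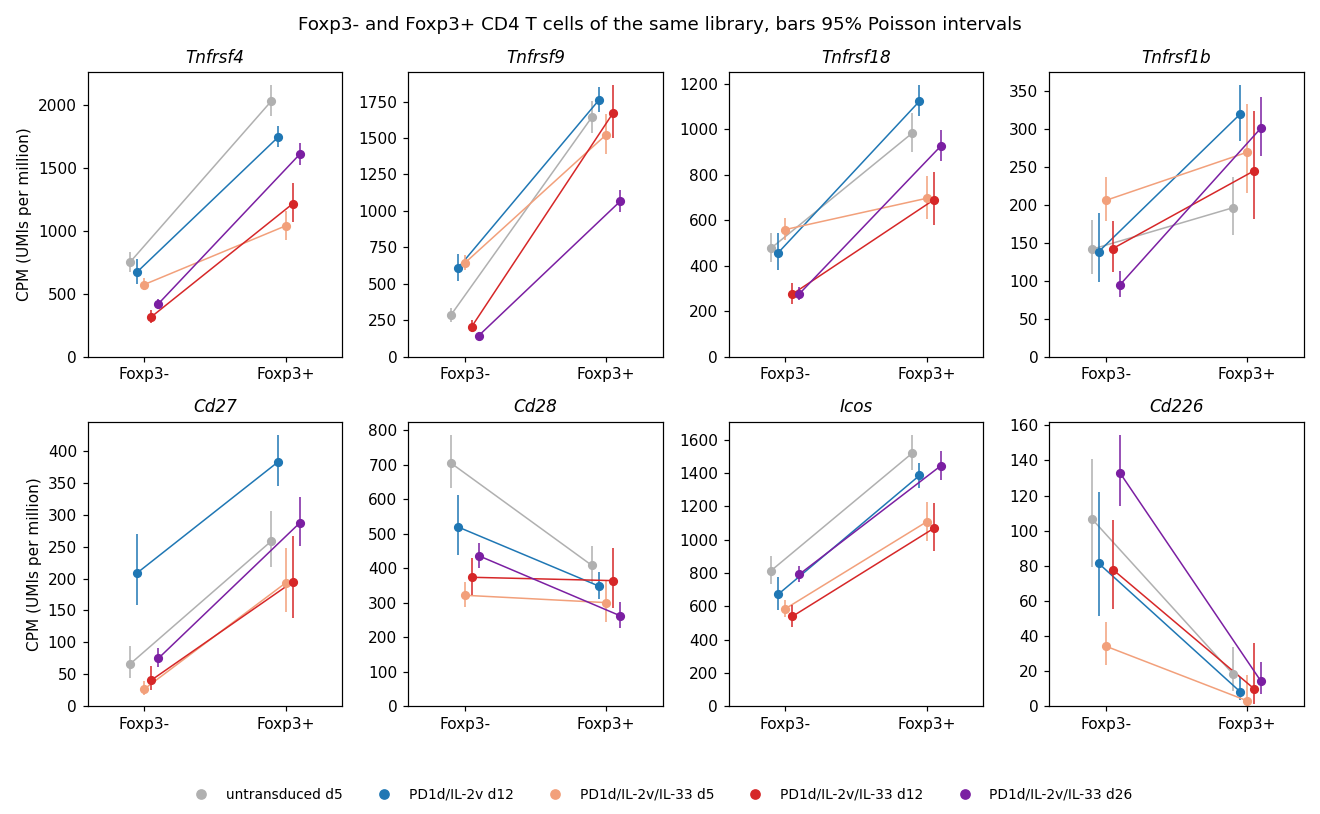
CPM of each receptor in Foxp3- and Foxp3+ CD4+ T cells of the same library (joined points, axes from 0), with exact 95% Poisson intervals. Lines rise in all 5 libraries for Tnfrsf4, Tnfrsf9, Tnfrsf18, Tnfrsf1b, Cd27 and Icos, and fall in all 5 for Cd28 and Cd226.

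Against CD8+ T cells, Foxp3- CD4+ T cells held more Tnfrsf4, Icos, Tnfrsf18 and Cd28 and less Cd27. In the 6 libraries with both populations 21% of 8560 genes were called by the same test, 11% as higher and 10% as lower, and 5 of the 8 receptors. Tnfrsf4 was higher by a log2 fold change of 2.43 ± 0.20 (adjusted p = 8.45e-07), Icos by 1.63 ± 0.12 (adjusted p = 2.92e-07), Tnfrsf18 by 1.15 ± 0.14 (adjusted p = 5.77e-05) and Cd28 by 0.81 ± 0.11 (adjusted p = 0.00013), each in 6 of 6 libraries (exact sign-flip p = 0.0312, the smallest possible, and 0.105 after adjustment). Cd27 was lower (-1.34 ± 0.22, adjusted p = 0.000538) in 5 of 6 libraries, with PD1d/IL-2v ACT the exception. Tnfrsf1b (0.22, adjusted p = 0.189), Cd226 (0.22, adjusted p = 0.323) and Tnfrsf9 (-0.22, adjusted p = 0.551) did not pass. Tnfrsf9 was higher in Foxp3- CD4+ T cells in 3 of 6 libraries, with the 2 highest values, 641 and 605 CPM, in combined ACT at day 5 and in PD1d/IL-2v ACT, where the type 2 and the regulatory markers of this gate, respectively, were highest. The part of these cells in the result was not tested further than by leaving cells out. Without cells that had a UMI of Il5, Il13 or Il1rl1, an alternative chosen after the data were seen, Tnfrsf9 was lower in Foxp3- CD4+ T cells (log2 fold change -0.67, adjusted p = 0.0458).

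NK cells differed from CD8+ T cells by the CD28 family and by Tnfrsf4, and not detectably by Tnfrsf9 or Tnfrsf1b. In 8 libraries 40.2% of 9173 genes were called, 19.3% as higher and 20.9% as lower in NK cells, so that calls were common. The receptors lower in NK cells were 5 of 8, each in 8 of 8 libraries (exact sign-flip p = 0.00781, the smallest possible, and 0.05 after adjustment). Tnfrsf4 was at the background level in NK cells (edgeR adjusted p = 6.01e-13), so its fitted fold change is not given. Icos was lower by a log2 fold change of -1.97 ± 0.16 (adjusted p = 2.56e-08), Cd28 by -1.35 ± 0.12 (adjusted p = 7.33e-08) and Cd27 by -1.05 ± 0.11 (adjusted p = 4.69e-07). Cd226, which is also an activating receptor of NK cells, was lower by -1.34 ± 0.23 (adjusted p = 0.000198), with a spread over libraries described further on. For Tnfrsf9 the log2 fold change was -0.14 (adjusted p = 0.426) and NK cells were higher in 4 of 8 libraries. For Tnfrsf1b it was -0.02 (adjusted p = 0.878). Tnfrsf18 (-0.27, adjusted p = 0.0829) was lower in 6 of 8 libraries and passed the threshold in 3 of 16 alternatives, among them NK cells with an Eomes UMI and no Cd3g (-0.41, adjusted p = 0.01).

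Type 2 cells, compared with CD8+ T cells in the 3 combined libraries, held more Tnfrsf4 and Icos and less Cd28 and Cd27. Of 9009 genes 7.68% were called, 4.51% as higher and 3.17% as lower, and 5 of the 8 receptors. Icos stood at 403, 378 and 658 CPM at days 5, 12 and 26 in type 2 cells and at 273, 160 and 200 CPM in CD8+ T cells (log2 fold change 1.21 ± 0.21, adjusted p = 0.0035). Tnfrsf4 stood at 258, 87.3 and 301 CPM against 85.7, 69.1 and 55.3 CPM (1.52 ± 0.32, adjusted p = 0.0119). Cd27 was close to absent, at 27.4, 3.88 and 21.2 CPM against 138, 103 and 184 CPM (-3.19 ± 0.35, adjusted p = 0.000136). Cd28 was lower in every library (-1.17 ± 0.18, adjusted p = 0.00191). Cd226 passed narrowly (-0.94 ± 0.25, adjusted p = 0.0384), and the call was lost without the library block (adjusted p = 0.179), with DESeq2, with a stricter gate and without any 1 of the 3 libraries (adjusted p = 0.0653 to 0.229). Tnfrsf18 did not pass (0.84, adjusted p = 0.138), but did in 4 of 11 alternatives, among them that without the day 12 library (1.32, adjusted p = 0.0119). Tnfrsf9 (0.26, adjusted p = 0.757) and Tnfrsf1b (-0.44, adjusted p = 0.327) did not pass. In simulated data this fit recovered only 2% of 2-fold changes, so that receptors that did not pass may still differ. The summed regulatory T-cell markers of the type 2 cells were 1818, 506 and 319 CPM at days 5, 12 and 26. Over these libraries Il2ra ranged from 99.1 to 1177 CPM, Ctla4 from 103 to 571 CPM and Ikzf2 from 70.4 to 117 CPM. Ikzf2 was at 68.0 to 200 CPM in CD8+ T cells and at 898 to 1183 CPM in Foxp3+ CD4+ T cells. The part of cells with these markers in the differences was not tested. Pooled over libraries, the CD4+ T-cell marker Cd40lg stood at 148 CPM in type 2 cells. It was at 287 CPM in Foxp3- CD4+ T cells and 7.14 CPM in CD8+ T cells. The type 2 gate leaves out cells with a Cd4 UMI, but CD4+ T cells in which Cd4 went uncounted can remain. Their part was not tested either. With 3 libraries the exact sign-flip test cannot go below 0.25.

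The genes that act with the receptors were described by lists of ligands, TRAF adaptors and NF-kB components, CD28 family signalling proteins, inhibitory receptors and other costimulatory receptors. Among the inhibitory receptors, 4 of 5 tested were higher in Foxp3+ than in Foxp3- CD4+ T cells and 1 was lower. Ctla4, which competes with CD28 for its ligands (log2 fold change 2.08 ± 0.25), Havcr2 (1.83 ± 0.29), Lag3 (1.67 ± 0.30) and Tigit, the competitor of CD226 (1.47 ± 0.16, edgeR adjusted p = 6.43e-06), were the 4. Their list median was 1.67, that of the 8 receptors 0.97 and that of all genes -0.03. Of 12 CD28 family signalling genes, 1 was higher and 5 were lower in Foxp3+ cells, among them Pik3cd, a phosphoinositide 3-kinase subunit (-1.37 ± 0.23), and Prkcq, protein kinase C theta (-1.30 ± 0.21). Of 15 TRAF and NF-kB genes, 1 was higher and 2 were lower, Map3k14 (-1.68 ± 0.30) and Tnfaip3 (-1.17 ± 0.14), close to the 17.7% of all genes called. Cd40lg, the ligand of CD40 (-4.90 ± 0.20), and Tnfrsf25, another TNF receptor (-2.84 ± 0.39), were lower, whereas Tnfrsf8, which encodes CD30, was higher (2.28 ± 0.42).

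TRAF and NF-kB genes were called in one direction in Foxp3- CD4+ T cells and in type 2 cells. In Foxp3- CD4+ T cells 12 of its 15 genes were higher and 0 lower, with a median log2 fold change of 0.76 against 0.02 for all genes. In type 2 cells 7 of 15 were higher and 0 lower, with a median of 0.70 against -0.05. Birc3 (1.35 ± 0.15 in Foxp3- CD4+ T cells and 1.94 ± 0.21 in type 2 cells) and the NF-kB inhibitor genes Nfkbia (1.45 ± 0.12 and 1.76 ± 0.19) and Tnfaip3 (1.16 ± 0.10 and 1.30 ± 0.19) were called in both. Both comparisons share the CD8+ T-cell sums. The Foxp3- CD4+ gate held type 2 marker UMIs, and the type 2 gate held Cd40lg UMIs, so the 2 gates may overlap. In NK cells 4 of the 15 were higher and 2 lower, close to the 40.2% of all genes called there. Of the ligands, 6 of 8 tested were lower and 1 higher in NK than in CD8+ T cells, and 4 of 7 were higher in Foxp3- CD4+ T cells, among them Tnf (1.34 ± 0.27) and Tnfsf9, the ligand of 4-1BB (1.32 ± 0.30). The ligands tested were 1 between CD4+ T-cell populations (Tnfsf9, -0.99 ± 0.27) and 9 in type 2 cells, of which 1 was higher (Icosl, 2.24 ± 0.54) and 2 lower. Inhibitory receptors were lower in NK cells in 5 of 6 genes tested and higher in 0, with a median of -2.82, led by Pdcd1 (-5.39 ± 0.21) and Havcr2 (-4.49 ± 0.23). Pdcd1 was low in NK cells at day 5, at 6.17 CPM (2 UMIs) in non-treated tumors and 23.0 CPM (57 UMIs) in untransduced ACT. Inhibitory receptors were lower in 3 and higher in 2 of 7 in Foxp3- CD4+ T cells, and lower in 2 and higher in 0 of 7 in type 2 cells. Other costimulatory receptors were higher in 4 and lower in 1 of 6 in Foxp3- CD4+ T cells, led by Cd40lg (5.41 ± 0.26), lower in 4 of 5 in NK cells and higher in 2 and lower in 3 of 6 in type 2 cells. The 2 higher in type 2 cells were Cd40lg (3.97 ± 0.34) and Tnfrsf25 (3.81 ± 0.33). CD28 family signalling genes were higher in 2 and lower in 1 of 12 in Foxp3- CD4+ T cells, higher in 5 and lower in 5 in NK cells, and higher in 1 and lower in 1 in type 2 cells. Of all genes, 21% were called in Foxp3- CD4+ T cells, 40.2% in NK cells and 7.68% in type 2 cells. The CD28 family count in Foxp3- CD4+ T cells was close to that share.

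Within CD8+ T cells the receptors were described in subsets set by other genes, against the remaining CD8+ T cells of the same library and without a test, as log2 ratios of CPM plus 10. A cell enters a subset only where its own UMIs show the marker, so subsets favor deep cells, and subsets may overlap. CD8+ T cells with a Foxp3 UMI were included on both sides. In PD1d/IL-2v ACT 18 such cells held 194 Tnfrsf4 UMIs, and the other CD8+ T cells held 403. Their part in the ratios between subsets was not tested. Cells with Gzmc, Gzmd or Gzmf, granzymes of strongly activated effector cells, held more Tnfrsf9 and Tnfrsf18 in 5 of 5 libraries. They held less Cd27, Cd28, Icos and Tnfrsf1b, also in 5 of 5. Tnfrsf9 was at 608 to 794 CPM in these cells and at 168 to 529 CPM in the rest, with log2 ratios from 0.46 in untransduced ACT at day 5 to 1.96 in combined ACT at day 26, where 20 cells carried the granzymes. For Tnfrsf18 the log2 ratios were 0.03 to 1.11, for Cd27 -1.01 to -0.33 and for Tnfrsf1b -0.46 to -0.03. Intervals lay above 0 in 5 libraries for Tnfrsf9 and in 3 for Tnfrsf18. They lay below 0 in 4 for Cd27 and Cd28, in 3 for Icos and in 1 for Tnfrsf1b. Cells with Gzmk, a granzyme of memory-like cells, held less Tnfrsf4 in 7 of 7 libraries, with log2 ratios from -2.65 to -0.39 and all 7 intervals below 0, less Tnfrsf18 in 7 of 7 (-1.26 to -0.12) and more Cd28 in 7 of 7 (0.16 to 0.66). Tnfrsf4 stood in Gzmk+ cells at 11.3 to 229 CPM and in the rest at 80.5 to 304 CPM.

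Cells with both Pdcd1, which encodes PD-1, and Tox, a factor of the exhaustion program, held more Tnfrsf4, Tnfrsf9 and Tnfrsf1b in 7 of 7 libraries. The log2 ratios of Tnfrsf4 were 0.04 to 1.14, with the lowest in non-treated tumors and 6 of 7 intervals above 0. Those of Tnfrsf1b were 0.05 to 0.56. Cd27 was higher in 3 of 7 and Cd28 in 2 of 7. Cycling cells, with Mki67 and Top2a, held less Cd27 (-0.63 to -0.04) and Tnfrsf1b (-0.49 to -0.06) in 6 of 6 libraries and more Tnfrsf4 in 5 of 6. Icos (-1.22 to 0.04) and Cd28 (-0.84 to 0.14) were lower in 5 of 6. Intervals lay below 0 in 5 libraries for Icos and Cd28, 4 for Cd27 and 2 for Tnfrsf1b, and above 0 in 5 for Tnfrsf4. CD8+ T cells with a Foxp3 UMI were included in these subsets too.

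At the level of single CD8+ T cells, thinned to 2000 UMIs, Tnfrsf4 was found together with Tnfrsf9 and Tnfrsf18. Among cells with a Tnfrsf4 UMI 50% to 77.4% had a Tnfrsf9 UMI, against 8.41% to 40.0% of cells without one. The share was higher in 6 of 6 libraries, and all 6 pairs of intervals were apart. In untransduced ACT at day 5 the shares were 71.4% of 105 cells and 29.5% of 396 cells, and in combined ACT at day 26 they were 50% of 76 cells and 8.41% of 2211 cells. For Tnfrsf18 the shares were 36.2% to 80% with and 15.1% to 31.6% without a Tnfrsf4 UMI, higher in 6 of 6 libraries with 5 pairs of intervals apart. Icos was higher in 5 of 6 libraries and Tnfrsf1b in 4 of 6, each with 2 pairs of intervals apart. No pair was apart for Cd28, Cd27 or Cd226. All 28 pairs of receptors were examined. CD8+ T cells with a Foxp3 UMI contributed to this. They held 270 to 2067 CPM of Tnfrsf4, against 22.6 to 225 CPM in CD8+ T cells without one. Without them the shares for Tnfrsf9 were 44.1% to 75% and 8.32% to 39.7%, and those for Tnfrsf18 were 35.7% to 50% and 16.6% to 31.6%, both higher in 5 of 5 libraries that had enough cells.

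**Figure D3:**
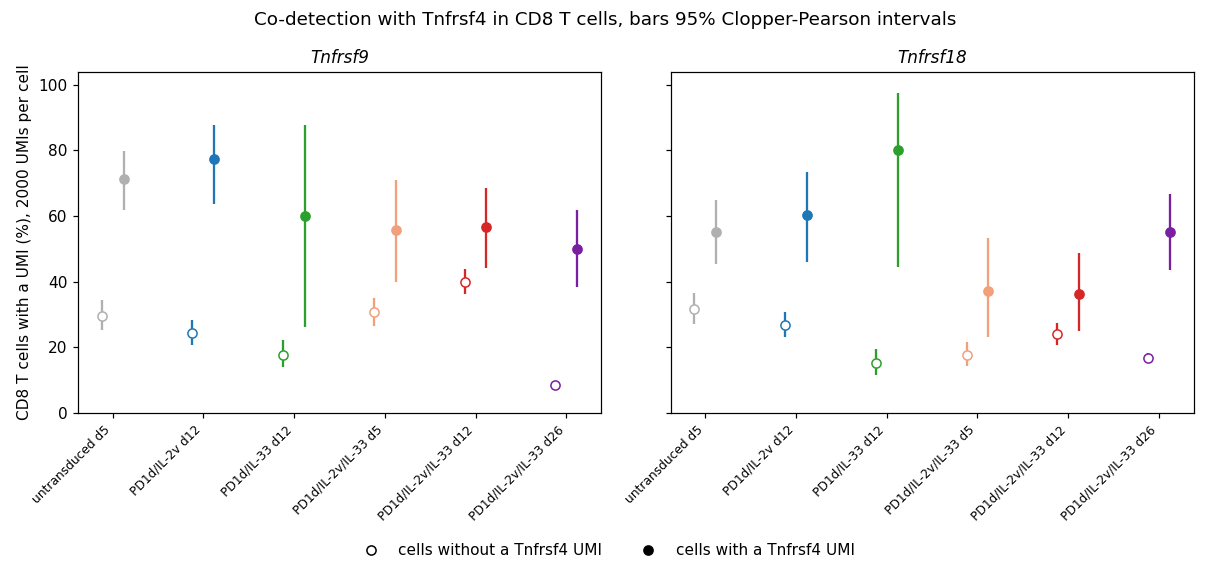
Share of CD8+ T cells with a Tnfrsf9 (left) or Tnfrsf18 (right) UMI, in percent after thinning to 2000 UMIs per cell, among cells without (open) and with (filled) a Tnfrsf4 UMI in 6 libraries, with exact 95% Clopper-Pearson intervals. Filled points lie above open points in every library. PD1d/IL-33 ACT has only 10 cells with Tnfrsf4 and the widest intervals.

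Between conditions the receptors of CD8+ T cells were compared by log2 ratios of CPM plus 10 with intervals from exact 95% Poisson limits. No condition had a second library on the same day, and no test was run. The intervals cover counting error only, and past 2-fold means a log2 ratio of at least 1 in either direction. Among all genes with at least 50 UMIs in the pair, 0.7% to 7.84% were past 2-fold, depending on the pair, and the median log2 ratio of all genes lay between -0.20 and 0.21 over all pairs and populations. Untransduced and combined ACT at day 12 shared a library code (NXT0352), as did the PD1d/IL-2v and the PD1d/IL-33 library (NXT0356), and non-treated tumors and combined ACT at day 26 (NXT0354). A shared code is called a run here, and whether it stands for a sequencing run was not tested. In other pairs run and condition cannot be told apart. Tnfrsf4 was highest in untransduced ACT at day 5 (286 CPM) and in non-treated tumors (130 CPM), followed by PD1d/IL-2v ACT (106 CPM), and combined ACT at day 5 (85.7 CPM). Untransduced ACT at day 12 (72.6 CPM), combined ACT at days 12 (69.1 CPM) and 26 (55.3 CPM) and PD1d/IL-33 ACT (34.1 CPM) were lower. From untransduced to combined ACT at day 5 the log2 ratio of Tnfrsf4 was -1.63 (-1.78 to -1.48), and it was the only receptor past 2-fold where 3.18% of genes were. Without Foxp3+ cells it was -1.35, and PD1d/IL-2v ACT (73.1 CPM) then stood below combined ACT at day 5 (82.0 CPM). At day 5 untransduced ACT exceeded non-treated tumors by 1.09 (0.73 to 1.46), again Tnfrsf4 alone where 2.03% of genes were past 2-fold, and under 4 alternatives this ratio was under 1.

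Tnfrsf9 in CD8+ T cells differed among the day 12 libraries, of which there was 1 per condition. It was at 487 CPM in PD1d/IL-2v ACT and 490 CPM in combined ACT, and at 146 CPM in PD1d/IL-33 ACT and 207 CPM in untransduced ACT. PD1d/IL-33 ACT was below PD1d/IL-2v ACT, a library of the same run, by a log2 ratio of -1.67 (-1.83 to -1.51), and below combined ACT, with a log2 ratio of 1.68 (1.52 to 1.84) of the latter to the former. Of all genes 3.06% and 1.75% were past 2-fold in these pairs. PD1d/IL-2v and combined ACT differed by a log2 ratio of 0.01 (-0.06 to 0.08), and 0 receptors were past 2-fold between them where 2.16% of genes were. Over untransduced ACT at day 12 Tnfrsf9 stood at 1.20 (0.83 to 1.58) in PD1d/IL-2v ACT, where 5.13% of genes were past 2-fold, and at 1.21 (0.84 to 1.59) in combined ACT of the same run, where 7.84% were. Over untransduced ACT at day 5 (552 CPM) the direction was the opposite, at -0.18 and -0.17, so that these 2 ratios rest on the 42 cells of the day 12 library. Combined ACT held 394 CPM at day 5, 490 CPM at day 12 and 178 CPM at day 26, a log2 ratio of -1.41 (-1.48 to -1.34) between the last 2 where 3.16% of genes were past 2-fold. Day 26 came from another run than day 12.

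**Figure D4:**
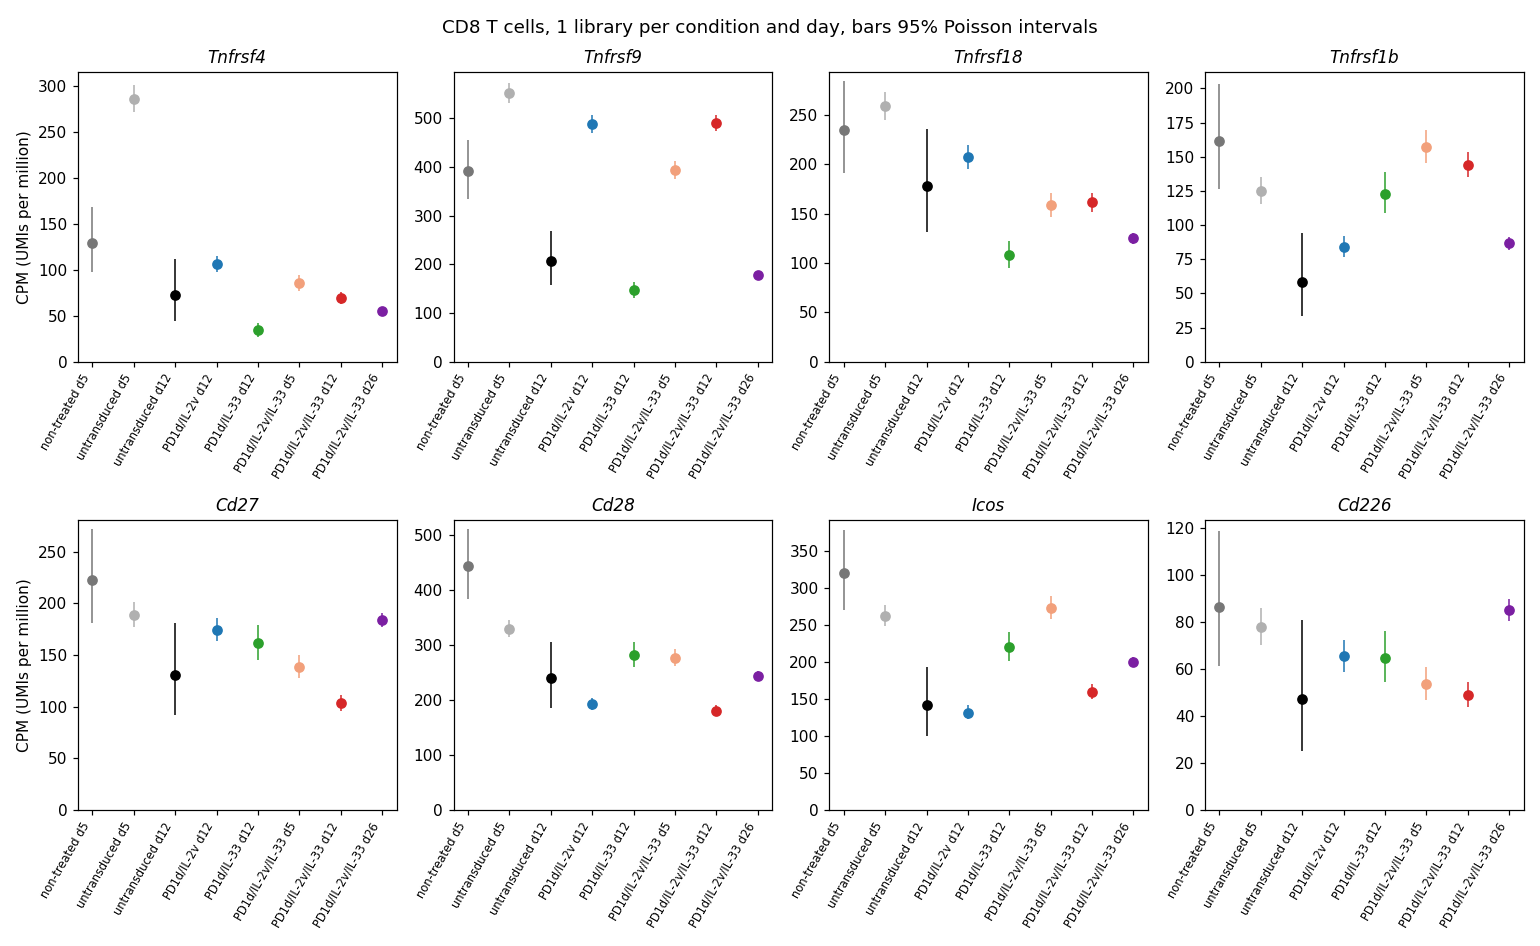
CPM of each receptor in CD8+ T cells of the 8 libraries (axes from 0), with exact 95% Poisson intervals. Tnfrsf9 is at 487 CPM or more in untransduced ACT at day 5, PD1d/IL-2v ACT and combined ACT at day 12, and at 207 CPM or less in untransduced ACT at day 12, PD1d/IL-33 ACT and combined ACT at day 26.

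The other receptors of CD8+ T cells moved less. Tnfrsf1b was at 144 CPM in combined ACT and 123 CPM in PD1d/IL-33 ACT at day 12, against 84.2 CPM in PD1d/IL-2v ACT and 58.1 CPM in untransduced ACT. Its log2 ratio of combined to untransduced ACT was 1.18 (0.56 to 1.84), with 16 UMIs in the 42 untransduced cells, and 0.19 over untransduced ACT at day 5, and that to PD1d/IL-2v ACT 0.71 (0.57 to 0.86). Tnfrsf1b and Icos thus stood higher in PD1d/IL-33 than in PD1d/IL-2v ACT (0.50 and 0.70), as did Cd28 (0.53), whereas Tnfrsf4 (-1.40, -1.68 to -1.12), Tnfrsf9 and Tnfrsf18 (-0.88) stood lower. Cd27 and Cd226 differed by -0.11 and -0.02, with intervals that included 0. For PD1d/IL-33 over untransduced ACT at day 12, where 5.74% of genes were past 2-fold, 0 receptors were, but Tnfrsf1b (0.97) and Tnfrsf4 (-0.91) were close to the limit. Both passed it under some alternatives, but over untransduced ACT at day 5 Tnfrsf1b was at -0.02. Between days 5 and 12 of combined ACT 0 receptors were past 2-fold where 0.7% of genes were, and the largest difference was that of Icos (-0.74). Between days 12 and 26 Cd27 (0.78), Cd226 (0.68), Cd28 (0.42) and Icos (0.31) were higher and Tnfrsf1b (-0.67), Tnfrsf18 (-0.34) and Tnfrsf4 (-0.28) were lower at day 26.

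Genes of the same lists were past 2-fold in some of these pairs of CD8+ T cells. From untransduced to combined ACT at day 5 Pdcd1 was at 803 and 217 CPM (log2 ratio -1.84), Lag3 (-1.21) and Tigit (-1.12) were lower, and Nfkb1 (1.37) and Grb2, an adaptor that binds CD28 (1.53), were higher. At day 12 Crtam, an activation-induced receptor, was at 149 CPM in untransduced and 124 CPM in PD1d/IL-2v ACT, and at 36.8 CPM in PD1d/IL-33 and 31.1 CPM in combined ACT. Nfkb1 was at 157 CPM in combined ACT, 67.0 CPM in PD1d/IL-2v ACT and 65.3 CPM in untransduced ACT at day 12. Between combined and PD1d/IL-33 ACT 0 of 15 TRAF and NF-kB genes, Nfkb1 among them, were past 2-fold, where 1.75% of all genes were. Between PD1d/IL-33 and PD1d/IL-2v ACT 0 of 15 were, where 3.06% of all genes were. In combined ACT Slamf6, a costimulatory receptor of precursor-like cells, was at 74.1 CPM at day 5, 18.2 CPM at day 12 and 76.7 CPM at day 26.

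Among CD4+ T cells the ratios between libraries rest on 26 to 307 cells. In Foxp3- CD4+ T cells 4 receptors were past 2-fold from untransduced to combined ACT at day 5, where 13.7% of genes were. Tnfrsf9 was higher (282 and 641 CPM, log2 ratio 1.16), and Cd28 (-1.11), Cd27 (-1.04) and Cd226 (-1.40) were lower. The type 2 marker sum of this gate was 299 and 11576 CPM in these libraries. From PD1d/IL-2v to combined ACT at day 12 Cd27 (-2.10), Tnfrsf9 (-1.51) and Tnfrsf4 (-1.07) were lower where 9.7% of genes were past 2-fold, and from PD1d/IL-2v to PD1d/IL-33 ACT Cd27 (-1.78) and Tnfrsf9 (-1.29) where 11.4% were. The regulatory T-cell marker sum of the gate was 1985 CPM in PD1d/IL-2v ACT, 542 CPM in PD1d/IL-33 and 364 CPM in combined ACT. The part of these cells in the ratios was not tested. From day 5 to day 12 of combined ACT Tnfrsf9 was lower (-1.59) where 3.62% of genes were past 2-fold. In 2 further pairs 0 receptors were past 2-fold, where 2.57% and 7.74% of genes were. With TMM factors Cd28 (-0.79) and Cd27 (-0.79) at day 5 and Tnfrsf4 at day 12 (-0.82) were under 2-fold. Tnfrsf18 came past it from day 5 to day 12 of combined ACT (-0.998 and -1.03 with TMM). In Foxp3+ CD4+ T cells 1 receptor was past 2-fold in 4 pairs, Cd226 with 10 and 1 UMIs at day 5 and an interval that included 0, where 10.7% of genes were past 2-fold. In the other 3 pairs 9.6%, 2.24% and 8.86% of genes were.

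In NK cells Cd226 varied most between libraries. This comparison was made after the values had been seen. Cd226 was at 74.0 CPM in non-treated tumors, 46.4 CPM (day 5) and 39.5 CPM (day 12) in untransduced ACT, 32.5 CPM in PD1d/IL-2v ACT and 29.1 CPM in PD1d/IL-33 ACT. Combined ACT held 10.2 CPM (55 UMIs in 917 cells) at day 5, 4.70 CPM (13 UMIs in 313 cells) at day 12 and 67.7 CPM (24 UMIs in 77 cells) at day 26. The day 5 and day 12 values were lower than in all other libraries, and the day 12 value lay within the macrophage range. Over untransduced ACT the log2 ratios of combined ACT were -1.48 (-1.77 to -1.18) at day 5, where 4.36% of genes were past 2-fold, and -1.75 (-2.53 to -0.92) at day 12, where 9.11% were. Shares of all genes cover genes with at least 50 UMIs in the pair, which Cd226 did not reach in the pairs of day 12 with untransduced ACT, with PD1d/IL-33 ACT and with day 26. At day 12 they were -1.53 (-1.84 to -1.17) over PD1d/IL-2v ACT, where 3.44% of genes were past 2-fold, and -1.41 (-1.99 to -0.80) over PD1d/IL-33 ACT, where 2.94% were. These 4 ratios stayed past 2-fold in every alternative run, with values from -2.83 to -1.15, and the one over untransduced ACT at day 12 was -2.23 in NK cells with Eomes and without Cd3g. At day 26 Cd226 stood above day 12 by a log2 ratio of 2.40 (1.78 to 2.96), where 10.5% of genes were past 2-fold, but by 0.76 in those cells. In CD8+ T cells of combined ACT Cd226 was at 53.4, 49.1 and 84.9 CPM at days 5, 12 and 26.

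**Figure D5:**
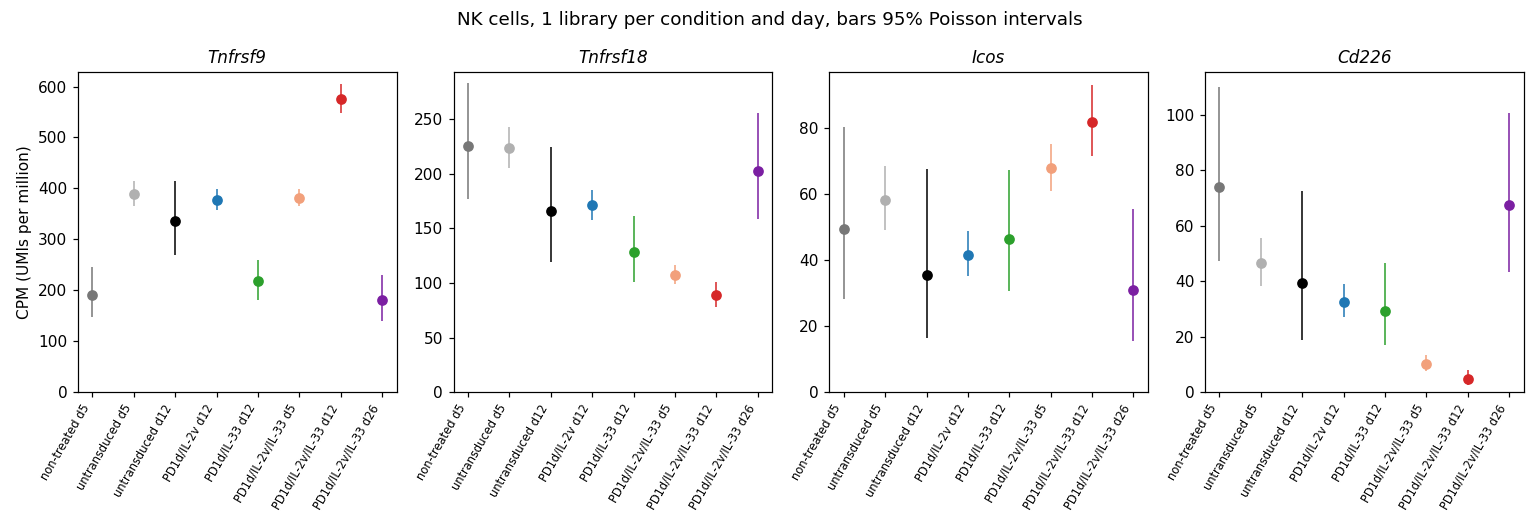
CPM of 4 receptors in NK cells of the 8 libraries (axes from 0), with exact 95% Poisson intervals. Cd226 is at 10.2 and 4.70 CPM in combined ACT at days 5 and 12 and at 29.1 CPM or more elsewhere, and Tnfrsf9 is highest in combined ACT at day 12.

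Tnfrsf9 of NK cells was highest in combined ACT at day 12 (576 CPM), compared with 378 CPM in PD1d/IL-2v, 217 CPM in PD1d/IL-33 and 336 CPM in untransduced ACT of that day. It was past 2-fold over PD1d/IL-33 ACT (1.37, 1.12 to 1.63) and from day 12 to day 26 (-1.62, -1.98 to -1.28). Tnfrsf18 went the other way, with 88.6 CPM in combined ACT at day 12, its lowest value, and 203 CPM at day 26 (log2 ratio 1.11, or 0.71 with TMM factors). Icos was at 81.7 CPM in combined ACT at day 12 and 35.6 CPM in untransduced ACT (1.01, 0.22 to 1.82), and was lower at day 26 (-1.16, -1.87 to -0.47). The regulatory T-cell marker sum in NK cells was also highest in combined ACT at day 12, at 122 CPM, within a range of 33.9 to 122 CPM. Ctla4 alone was at 70.2 CPM in that library, and Foxp3 was at 0 to 1.71 CPM over the 8 NK libraries. The part of cells with these markers in the receptor levels was not tested. In the other 5 pairs of NK libraries 0 receptors were past 2-fold. TMM factors also brought ratios past 2-fold that were under it before. For combined ACT at day 12 they were Tnfrsf9 over untransduced ACT (0.76 and 1.16 with TMM), and Tnfrsf1b (0.93 and 1.19) and Icos (0.83 and 1.08) over PD1d/IL-2v ACT. The others were Cd28 from day 12 to day 26 (-0.71 and -1.10) and Tnfrsf9 in untransduced ACT over non-treated tumors at day 5 (0.99 and 1.04). The share of all genes past 2-fold was 1.5% for untransduced ACT over non-treated tumors at day 5, 4.44% when PD1d/IL-2v ACT was set over untransduced ACT at day 12, 3.58% when PD1d/IL-33 ACT was, 4.66% between these engineered products and 0.695% between days 5 and 12 of combined ACT.

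In type 2 cells, with 32, 59 and 52 cells at days 5, 12 and 26 of combined ACT, the day 12 library stood apart. Tnfrsf4 (-1.46) and Cd27 (-1.43) were lower at day 12 than at day 5 where 6.97% of genes with at least 50 UMIs were past 2-fold. Cd27, with 7, 2 and 6 UMIs at days 5, 12 and 26, was below that minimum. Tnfrsf4 (1.68), Tnfrsf18 (1.54) and Cd27 (1.17) were higher at day 26 than at day 12 where 9.5% were. Tnfrsf18 stood at 270, 144 and 435 CPM on the 3 days. With TMM factors Tnfrsf1b, lower at day 26 than at day 12, also came past 2-fold (-0.96 and -1.21 with TMM).

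Over the 30 sums of a population in a library, the receptors whose levels on the scale of log2(CPM + 10) moved most closely together were Tnfrsf4 and Icos (r = 0.97) and Tnfrsf4 and Tnfrsf18 (r = 0.85), and those that moved most oppositely were Tnfrsf9 and Cd226 (r = -0.70). These correlations describe 5 populations from shared libraries, and populations account for much of the spread. Of 7477 genes with a mean of at least 10 CPM, those most like Tnfrsf4 were Tank (r = 0.95), Cd5 (0.95) and Ly6a (0.94), and those most like Icos were Mif4gd, Tank and Sgms1 (0.96 each). Tnfrsf9 was most like Bnip3 (0.87), Tpi1 and Lrrc32 (0.82 each), the last encoding GARP. Tnfrsf18 was most like Sdf4 (0.96), Bcl3 and Fam132a (0.90 each), and Tnfrsf1b like Hbs1l (0.80), Wnk1 and Eno1 (0.79 each). Cd28 was most like Slamf6 (0.90), Slamf1 (0.87) and Tnfaip8 (0.84), Cd27 like Gimap7 (0.85) and Pglyrp1 (0.84), and Cd226 like Vps13a (0.86), Ehd3 (0.84) and Klf3 (0.82).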

How the data were processed

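Per the labels and the study's Methods, libraries were made with the 10x Genomics 5′ chemistry, and the submitters' processing notes name bcl2fastq, Cell Ranger 2.2.0 and the genome GRCm38. The Methods name a later Cell Ranger version, and the annotation release is not given in the sources used here. The authors deposited raw UMI counts per gene and barcode (unit: counts) for the 8 libraries together, and each barcode was mapped to its library by its number suffix, read as the row of the deposited table of aggregated libraries, the numbering that Cell Ranger uses. The cell filter of the study was rebuilt: 500 to 6000 genes, 2000 to 40000 UMIs, under 10% mitochondrial and 5% to 60% ribosomal UMIs. No doublet caller was run, and leaving out the 6% of cells with the most UMIs was an alternative. Cells were gated by 1 or more marker UMIs, raw counts were summed per library and population with at least 20 cells, and CPM were computed from these sums.

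Populations were compared with edgeR 4.0.16 (quasi-likelihood test, TMM factors, library as a block, Benjamini-Hochberg adjustment over all genes, threshold 0.05) in R 4.3.3, with DESeq2 1.42.0 as an alternative and an exact sign-flip test over libraries. The SE of a log2 fold change was not fitted. It was computed as the absolute fold change divided by the square root of the F statistic. Populations of the same library pair the sums. The groups of a pair are gates in pooled tumors, so p-values measure the spread between libraries, which differ in treatment and day. Libraries were compared by log2 ratios of CPM plus 10 with exact Poisson limits at 95%, without a test. For shares of cells, each cell was thinned to 2000 UMIs, with Clopper-Pearson limits. A count of 0 allows up to 3 counts. Intervals and floors cover counting error only. Scripts were tested on simulated data and used matplotlib 3.10.9, pandas 2.3.3, scipy 1.17.1 and numpy 2.4.6 under Python 3.11.15. Of simulated 2-fold changes the edgeR fits recovered 29% between CD4+ T-cell populations and 43% for Foxp3- CD4+ over CD8+ T cells. They recovered 53% for NK cells and 2% for type 2 cells, both over CD8+ T cells. A gene that did not pass may therefore still differ.

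The members, the 5 gene lists (54 genes) and the gates were chosen with earlier results of these data known. Named genes were all 8 receptors, the 3 genes most correlated with each, and at most 4 genes per list and comparison with the largest change among those called or past 2-fold. Promoter sequences and positions came from RefSeq tables (GRCm38.p6). Results for 1 subset of CD8+ T cells and for 1 correlated gene are not reported here.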

Additional observations from a re-analysis of the deposited data

How the results depend on the processing

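Counts of receptors past 2-fold in CD8+ T cells changed as follows. For untransduced ACT at day 5 over non-treated tumors the count was 1 and became 0 with a stricter gate, with the filter of the study's later experiment, without cycling cells and with equal weight per cell. For PD1d/IL-2v over untransduced ACT at day 12 it was 1 and became 2 with the later filter. For PD1d/IL-33 over untransduced ACT at day 12 it was 0 and became 3 with a stricter gate and with untransduced ACT at day 5 in its place, 2 with a pseudocount of 1 CPM, with the later filter and without Foxp3+ cells, and 1 without cycling cells, without the 6% of cells with the most UMIs and with equal weight per cell. For combined ACT over PD1d/IL-33 ACT it was 1 and became 2 with a stricter gate and without Foxp3+ cells. For PD1d/IL-33 over PD1d/IL-2v ACT it was 2 and became 1 with the later filter. For combined ACT over untransduced ACT at day 12 it was 2 and became 1 with untransduced ACT at day 5 in its place, where Tnfrsf1b (0.19) was lost, Tnfrsf9 reversed (log2 ratio -0.17) and Tnfrsf4 (-1.90) alone was past 2-fold. Tnfrsf9 also reversed for PD1d/IL-2v ACT (-0.18), where Tnfrsf4 (-1.35) took its place in an unchanged count of 1. The cause was not tested.

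Counts of all genes called between populations moved by over 1.5 times in some fits. For Foxp3+ over Foxp3- CD4+ T cells, 1005 genes became 589 with DESeq2, 468 without the library block, 508 with a stricter gate and 625 without combined ACT at day 26. For Foxp3- CD4+ over CD8+ T cells, 1801 became 633 without the block and 1166 with a stricter gate. For NK over CD8+ T cells, 3689 became 2023 without the block. For type 2 over CD8+ T cells, 692 (406 higher and 286 lower) became 366 without the block and 1051 without a filter on low counts, and DESeq2 called 431 higher and 171 lower. Without the block the calls of Cd28 between CD4+ T cells (adjusted p = 0.0973) and of Cd226 in type 2 cells (adjusted p = 0.179) were lost. Conditions were compared by ratios within a day and without a test, except in the alternative with untransduced ACT at day 5, which crosses days. The ratios of combined to untransduced ACT at days 5 and 12 were not joined into a paired comparison.

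Precision is limited by few cells, with 42 CD8+ and 54 NK cells in untransduced ACT at day 12, and by low counts of Cd226 (13 UMIs in NK cells of combined ACT at day 12). The alternatives without Foxp3+ CD8+ T cells, without Il5, Il13 or Il1rl1 cells and with Eomes in NK cells were chosen after seeing the data.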

Other observations

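Sdf4 and Fam132a, 2 genes near Tnfrsf4 and Tnfrsf18 on chromosome 4, were among the 3 genes with levels most like those of Tnfrsf18 over the 30 sums of a population in a library, which share libraries and depth. Sdf4, a calcium-binding protein gene whose annotated end overlaps Tnfrsf4 by 16 bases and lies 12.71 kb from Tnfrsf18, had r = 0.92 with Tnfrsf4 and r = 0.96 with Tnfrsf18. Its median was 1142 CPM in Foxp3+ CD4+ T cells (933 to 1637 over 5 libraries), 520 CPM in Foxp3- CD4+ T cells (405 to 807), 230 CPM in CD8+ T cells (167 to 392) and 184 CPM in NK cells (116 to 216). Fam132a lies 46.97 kb from Tnfrsf4 and 59.69 kb from Tnfrsf18 (r = 0.89 and 0.90), and had medians of 53.8 CPM in Foxp3+ CD4+ T cells, 19.5 CPM in Foxp3- CD4+ T cells, 7.43 CPM in CD8+ T cells and 3.84 CPM in NK cells. Unlike Tnfrsf4, Sdf4 was present in NK cells. These genes were named after their values were seen to rank among the most alike.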
